A study of Mus musculus with 2 samples.

Results

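Chemokine ligands are small secreted proteins that guide leukocytes by binding G protein-coupled receptors, and they are classed as CC, CXC, CX3C or XC by the spacing of their first cysteines. In the spleen, some members hold lymphocytes and dendritic cells in the white pulp, and others are made by activated T cells, NK cells, myeloid cells or dendritic cells and draw further leukocytes in. A gene was taken as a member if a probe set carried its symbol alone and the symbol began with Ccl, Cxcl, Cx3cl or Xcl followed by a digit. By this rule 34 of the 22180 genes measured were chemokine ligand genes, and for each the probe set with the highest mean of both arrays was used.

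Expression was measured with 2 Affymetrix whole-transcript arrays, 1 for each group. Both groups were Fx-/- mice, which lack an enzyme of GDP-fucose synthesis and depend on supplied fucose to make fucosylated glycans. The on-fucose array held RNA of spleen cells from fucose-treated mice, and the off-fucose array held RNA from mice with no fucose treatment. The cells were labelled cDC1, the conventional dendritic cells that cross-present antigen, and were enriched with beads by depletion of B220 and CD11b and selection of CD11c. The labels used here give no age, sex or number of the mice, and no array of wild-type mice was used here. With 1 array per group there was no replicate check, so each difference below describes these arrays and has no p-value and no SD.

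Levels are log2 intensities, and each difference is the off-fucose minus the on-fucose level. The median over all genes was 2.88 on the on-fucose array and 2.91 on the off-fucose array, which lies near the dim end of the scale. A gene passed the expression filter if its mean level was at or above the median of all such means, 2.88, and 13 of the 34 members passed. Intensities are those of a probe set and were not compared between genes, except in the sums over marker lists. Those sums weigh bright probe sets most. As a measure of the scatter among genes, the robust SD of the differences in 20 bins of like mean level ran from 0.18 to 0.38. As a second measure, the differences from the pair of brightest probe sets of a gene disagreed by a median of 0.25 and by 0.89 at the 95th percentile, over 359 genes with more than 1 probe set past the filter. The first holds biological as well as technical differences, the second reflects how probe sets respond, and neither replaces replicate mice.

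The arrays differed in more than the fucose label. Xist, which in female cells shuts down an X chromosome, had 8.26 on fucose and 2.82 off fucose, so the sex of the mice and the fucose supply cannot be told apart. Of the genes that define cDC1, the receptor gene Xcr1 had 2.90 and 3.43, close to the array medians, and the transcription factor gene Batf3 had 4.58 and 5.49. All 9 measured T cell markers lay above the medians, with Cd3e at 10.97 and 10.55, so the RNA carried T cell transcripts that the label does not name. In such bulk RNA, fewer cells of a type and less RNA per cell cannot be told apart.

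Of the 13 members past the filter, 4 (30.8%) were at least 2-fold higher off fucose, namely Ccl3, Ccl9, Ccl4 and Ccl6. Among all 11090 genes past the filter, the share was 2.37%. Cxcl16 was the 1 member (7.69%) at least 2-fold lower, against 0.514% of all genes, and it stood at the edge of that threshold. Each of these 5 genes lay above the array median on both arrays, so none passed the filter through a single array. The median difference of the 13 members was 0.06, beside -0.05 over all genes past the filter, and 7 were positive and 6 negative. The ligands therefore did not shift together: 4 CC genes were at least 2-fold higher off fucose and most members lay within 2-fold. Of these 4, Ccl3 differed most (7.20-fold) and Ccl6, at 2.07-fold, also stood near the threshold. With differences centred on the median of the T cell markers, which moved the median of all genes to 0.33, the split of 4 higher and 1 lower became 4 higher and 0 lower. The shares of all genes were then 5.18% and 0.162%.

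**Figure D1:**
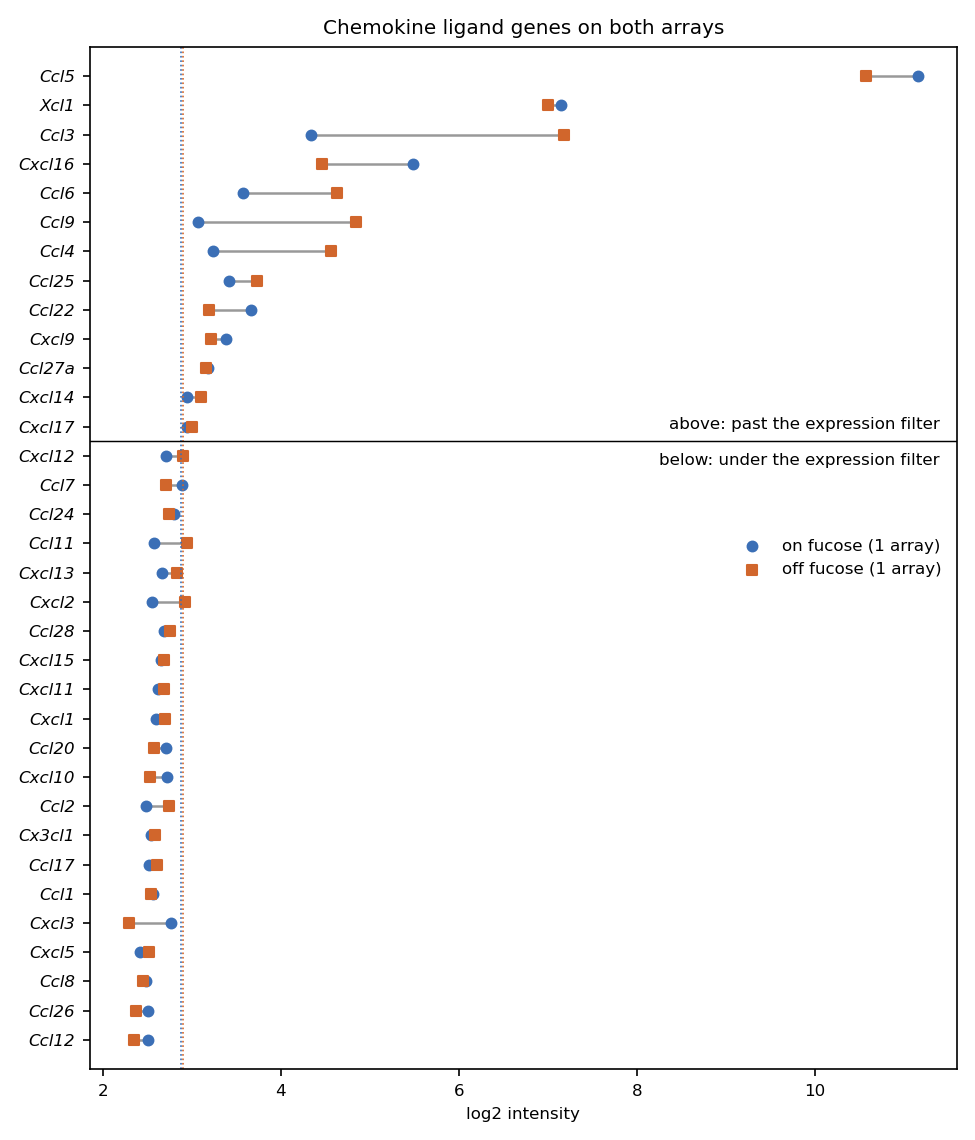
Log2 intensity of the 34 chemokine ligand genes on the on-fucose array (circles) and the off-fucose array (squares), ordered by mean level. Dotted lines mark each array's median over all genes, 2.88 and 2.91, and the horizontal line separates the 13 genes past the expression filter from the 21 under it. The widest gap is that of Ccl3, and the squares of Ccl5 and Cxcl16 lie left of their circles.

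The genes that stood out as higher off fucose lie side by side on chromosome 11, and the sequence before the transcription start is shown for the 3 of them that the promoter table held. Each line gives the 250 bases before the start of the gene from RefSeq (build GRCm38.p6, minus strand), read 5′ to 3′ on the coding strand. The capitals mark every match, on either strand, to a kappaB-like motif (GGGNNNNNCC), an AP-1 motif (TGANTCA) or a C/EBP-like motif (TTNNGNAA), which are short forms of the sites of factors that act on inflammatory genes.

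Ccl3, chr11:83649379-83649628: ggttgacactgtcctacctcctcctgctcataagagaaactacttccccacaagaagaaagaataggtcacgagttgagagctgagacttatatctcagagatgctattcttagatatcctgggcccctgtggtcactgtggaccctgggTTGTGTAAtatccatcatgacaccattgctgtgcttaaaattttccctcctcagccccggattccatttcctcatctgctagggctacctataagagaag

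Ccl6, chr11:83593088-83593337: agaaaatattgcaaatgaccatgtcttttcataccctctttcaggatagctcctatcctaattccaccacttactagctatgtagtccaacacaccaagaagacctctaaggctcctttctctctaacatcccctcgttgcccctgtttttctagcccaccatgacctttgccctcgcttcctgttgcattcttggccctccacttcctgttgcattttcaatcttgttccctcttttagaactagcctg

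Ccl9, chr11:83578637-83578886: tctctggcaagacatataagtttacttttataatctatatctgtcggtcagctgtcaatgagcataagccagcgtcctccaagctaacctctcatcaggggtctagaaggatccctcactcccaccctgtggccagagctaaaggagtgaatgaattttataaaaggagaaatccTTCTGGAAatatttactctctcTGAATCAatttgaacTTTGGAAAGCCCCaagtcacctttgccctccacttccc

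The Ccl3 sequence held 1 C/EBP-like match, from 100 to 93 bases before the start. The Ccl6 sequence held no match to any of the 3 motifs. The Ccl9 sequence held 2 C/EBP-like matches, 1 AP-1 match 53 to 47 bases before the start, and 1 kappaB-like match that overlaps the nearer C/EBP-like match. No motif among those searched was thus found in all 3 of these neighbouring genes, while Ccl3 and Ccl9 both held the C/EBP-like motif. Of the 32851 promoter windows of this length in the table, 45.8% held the kappaB-like motif, 6.75% the AP-1 motif and 36.8% the C/EBP-like motif. The table held 26 windows for 23 of the 34 members, and 14, 3 and 11 of these windows held the motifs. A match is a run of letters and was not tested as a site.

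Ccl3 had the largest difference of all members. It encodes macrophage inflammatory protein 1-alpha, which attracts monocytes, T cells and granulocytes. Its intensity was 20.2 on fucose and 145.2 off fucose, or 4.33 and 7.18 on the log2 scale, a 7.20-fold higher value off fucose (probe set 17266967). The log2 difference of 2.85 was the 30th highest of the 11090 genes past the filter and the 4th highest of the 554 genes in its bin of like level, where the robust SD was 0.31.

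Ccl4 encodes macrophage inflammatory protein 1-beta, the close relative of Ccl3 that is often induced with it. It had an intensity of 9.43 on fucose and 23.6 off fucose, levels of 3.24 and 4.56 (probe set 17254283). This made Ccl4 2.50-fold higher off fucose, with a difference of 1.32, against a robust SD of 0.38 among genes of like level. Ccl4 thus differed in the same direction as Ccl3 and by less on this scale, from an on-fucose level near the array median.

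Ccl9 and Ccl6 are CC chemokines of mice that are made by myeloid cells and bind CCR1. Ccl9 had an intensity of 8.38 on fucose and 28.7 off fucose, levels of 3.07 and 4.84, which is a 3.43-fold higher value (difference 1.78; probe set 17266952). Ccl6 had 11.9 and 24.7, levels of 3.58 and 4.63, a 2.07-fold higher value (difference 1.05; probe set 17266960). In their shared bin of 554 genes, Ccl9 had the 10th, Ccl4 the 21st and Ccl6 the 31st highest difference, so Ccl6 exceeded the scatter of like genes by the smallest margin of the 4.

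Ccl5 went the other way. It encodes RANTES, a chemokine that effector and memory T cells and NK cells store and release. Its intensity was 2274 on fucose and 1522 off fucose, levels of 11.15 and 10.57, so it was 1.49-fold higher on fucose (difference -0.58; probe set 17266946). Bright genes scattered least, with a robust SD of 0.18 in its bin, and the difference of Ccl5 was the 6th lowest of 555 genes there. The difference was -0.21 with centring on the T cell markers, whose median difference was -0.37.

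The other inflammatory CC ligands were dim on both arrays. Ccl2 and Ccl7, which attract CCR2-bearing monocytes, had levels of 2.49 and 2.89 on fucose and 2.75 and 2.71 off fucose. Ccl8 had 2.49 and 2.45, and Ccl12 had 2.51 and 2.35. All 4 were under the filter, at or near the array medians or below them, and their differences ran from -0.18 to 0.26. No order can be read from values this dim.

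**Figure D2:**
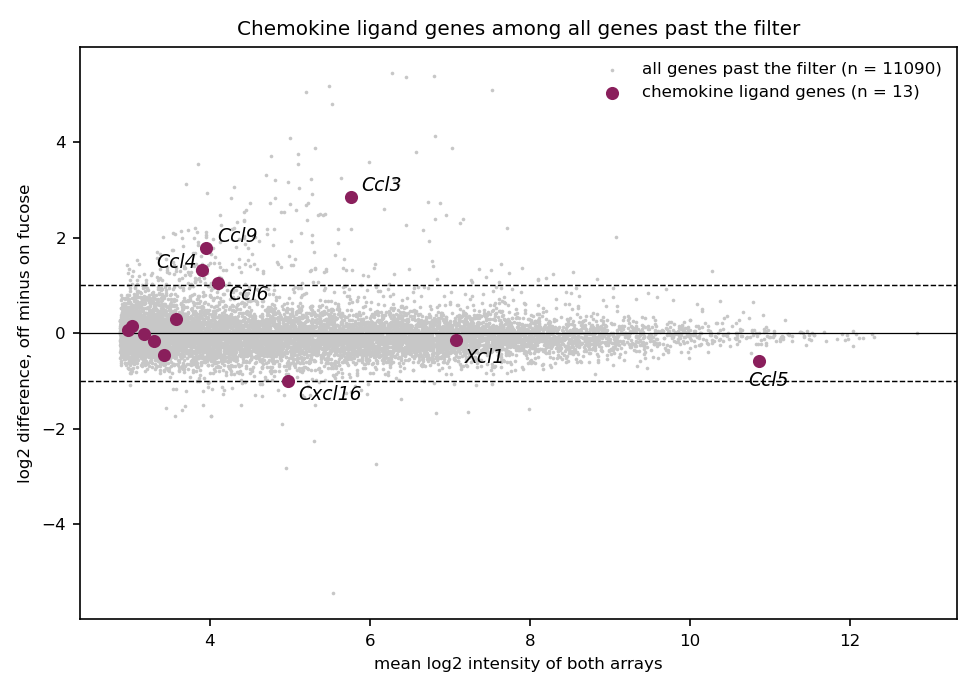
Log2 difference (off minus on fucose) against mean log2 intensity for the 11090 genes past the filter (grey) and the 13 chemokine ligand genes among them (dark points). Dashed lines mark 2-fold. Ccl3, Ccl9, Ccl4 and Ccl6 lie above the upper line, Cxcl16 lies on the lower line, and Ccl5 lies under the narrow band of bright genes.

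Cxcl16 and Cx3cl1 encode the chemokines that are made as transmembrane proteins and can be shed. Cxcl16, the ligand of CXCR6, is displayed by dendritic cells and macrophages. Its intensity was 44.6 on fucose and 22.1 off fucose, levels of 5.48 and 4.47, so it was 2.02-fold higher on fucose (probe set 17265268). The difference of -1.01 was the 56th lowest of all genes past the filter and the 5th lowest of 554 genes of like level, where the robust SD was 0.32. The call of a 2-fold lower value ended under every rescaling tried, with -0.95 after quantile normalization, -0.92 after loess, -0.96 with centring on all genes and -0.64 with centring on the T cell markers. Cx3cl1, the ligand of CX3CR1, had 2.55 and 2.59 and was under the filter.

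Xcl1 encodes lymphotactin, which NK cells and CD8 T cells release and which attracts XCR1-bearing cDC1. Its intensity was 141.8 on fucose and 128.4 off fucose, levels of 7.15 and 7.004, and the difference of -0.14 was smaller than the robust SD of 0.26 among genes of like level. When centred on the T cell markers, it was 0.23. Unlike Ccl5, which these cell types also make, Xcl1 thus lay within the scatter of like genes, although the difference between the 2 genes was not tested.

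Ccl22 and Ccl17 encode the ligands of CCR4, which dendritic cells make and which attract regulatory and type 2 helper T cells. Ccl22 had an intensity of 12.6 on fucose and 9.17 off fucose, levels of 3.66 and 3.20 (difference -0.46; probe set 17504122). That difference was the 39th lowest of 555 genes of like level, not far outside their robust SD of 0.36, and it was -0.09 with centring on the T cell markers. Ccl17 had 2.52 and 2.61 and was under the filter.

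Homeostatic and epithelial ligands were dim. Ccl25, which draws CCR9-bearing cells to thymus and gut, had levels of 3.42 on fucose and 3.73 off fucose, and its difference of 0.30 was about the robust SD of its bin, 0.31. Ccl27a, a skin chemokine that binds CCR10, had 3.18 and 3.16, and its second probe set had 2.93 and 2.77. Ccl27a was the member with more than 1 probe set under its symbol alone, and both gave small negative values (-0.02 and -0.16). That of the first was 0.35 when centred on the T cell markers. The second had the same values as probe sets that name 5 genes, so it cannot be taken as a separate measure of Ccl27a. Ccl28, Cxcl12 and Cxcl13, the last 2 being stromal chemokines that act on CXCR4 and CXCR5, were under the filter. Their levels were 2.69, 2.71 and 2.67 on fucose and 2.75, 2.90 and 2.83 off fucose.

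Among the CXC ligands of neutrophils, Cxcl1, Cxcl2, Cxcl3, Cxcl5 and Cxcl15, none passed the filter. Cxcl2 had 2.55 on fucose and 2.92 off fucose, and Cxcl3 had 2.77 and 2.29, the latter being the largest negative difference (-0.47) of the members under the filter. The interferon-inducible ligands of CXCR3 were also dim. Cxcl9 passed with 3.38 and 3.22 (difference -0.16, or 0.21 when centred on the T cell markers), whereas Cxcl10 (2.72 and 2.53) and Cxcl11 (2.62 and 2.69) did not. Cxcl14, with 2.95 and 3.10, and Cxcl17, with 2.95 and 3.01, lay just past the filter.

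The remaining members under the filter were Ccl11, Ccl24 and Ccl26, which act on the eosinophil receptor CCR3, together with the CCR8 ligand Ccl1 and the CCR6 ligand Ccl20. Over all 21 members under the filter, levels ran from 2.42 to 2.89 on fucose and from 2.29 to 2.95 off fucose. Their differences ran from -0.47 to 0.38, with 12 positive and 9 negative. These ranges lie at the dim end of both arrays, and poor response of a probe set would look the same.

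Chemokine genes lie in runs in the mouse genome, which allowed the differences to be read in gene order from the RefSeq table (assembly GRCm38.p6). In 1 run on chromosome 11, the protein-coding genes in order were Ccl5, Ccl9, Ccl6, Ccl3 and Ccl4, with no other protein-coding gene between them. The last 4 of these 5 neighbours were the 4 members at least 2-fold higher off fucose, and Ccl5 at the end of the run was lower. In the other run on chromosome 11, of Ccl2, Ccl7, Ccl11, Ccl12, Ccl8 and Ccl1, all 6 genes were under the filter. On chromosome 5, Cxcl5, Cxcl3, Cxcl15, Cxcl1 and Cxcl2 were under the filter, while the platelet chemokine genes Ppbp and Pf4, which lie between Cxcl5 and Cxcl3, were higher off fucose. Cxcl9, Cxcl10 and Cxcl11 form another run on chromosome 5, with Art3 among them, in which Cxcl9 alone passed the filter. On chromosome 8, the run of Ccl22, Cx3cl1 and Ccl17 had 1 gene past the filter, Ccl22.

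**Figure D3:**
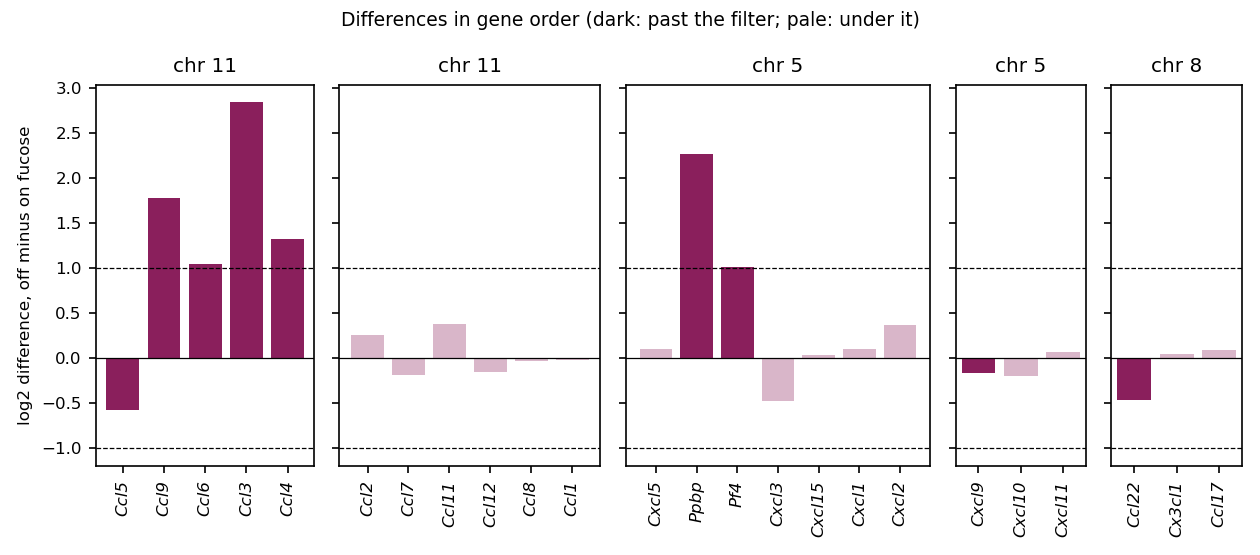
Log2 difference (off minus on fucose) of chemokine genes in the order in which they lie on mouse chromosomes 11, 5 and 8, with 1 panel for each run. Dark bars are genes past the expression filter, pale bars are genes under it, and dashed lines mark 2-fold. Ccl9, Ccl6, Ccl3 and Ccl4 stand above the upper line next to Ccl5 below 0, and Ppbp and Pf4 stand out in an otherwise pale run.

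Ppbp and Pf4 encode chemokines stored in platelet granules and fall outside the symbol rule. Ppbp had 3.005 on fucose and 5.28 off fucose, which is 4.83-fold higher. Pf4 had 2.47 and 3.48, which is 2.02-fold higher, and its on-fucose level was under the array median. Other megakaryocyte genes were nearer to equal, with Itga2b at a difference of 0.78, Gp9 at 0.49 and Treml1 at 0.17.

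The receptors that these ligands bind showed fewer differences. Of 22 chemokine receptor genes measured, 14 passed the filter, 1 of them was at least 2-fold higher off fucose and 0 were at least 2-fold lower, beside the shares of 2.37% and 0.514% of all genes. The median of the 14 was 0.07, beside -0.05 over all genes. Ccr2, carried by inflammatory monocytes and basophils, had 3.59 on fucose and 5.15 off fucose, a 2.93-fold higher value. Its ligand genes Ccl2, Ccl7 and Ccl12 were under the filter.

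Receptors of the other members that differed lay within 2-fold. Ccr1, a receptor for Ccl3, Ccl5, Ccl6 and Ccl9, had 2.79 and 2.58 and was under the filter. Cxcr6, the receptor for Cxcl16, had 6.93 and 7.30, a difference of 0.37 opposite in sign to that of its ligand gene. Xcr1, the receptor for Xcl1, had a difference of 0.53, and Ccr4, the receptor for Ccl22, had 3.42 and 3.18. The lymph node homing receptor gene Ccr7 had 9.30 and 9.12, and Cxcr4, the receptor for the dim Cxcl12, had 9.90 and 10.40.

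**Figure D4:**
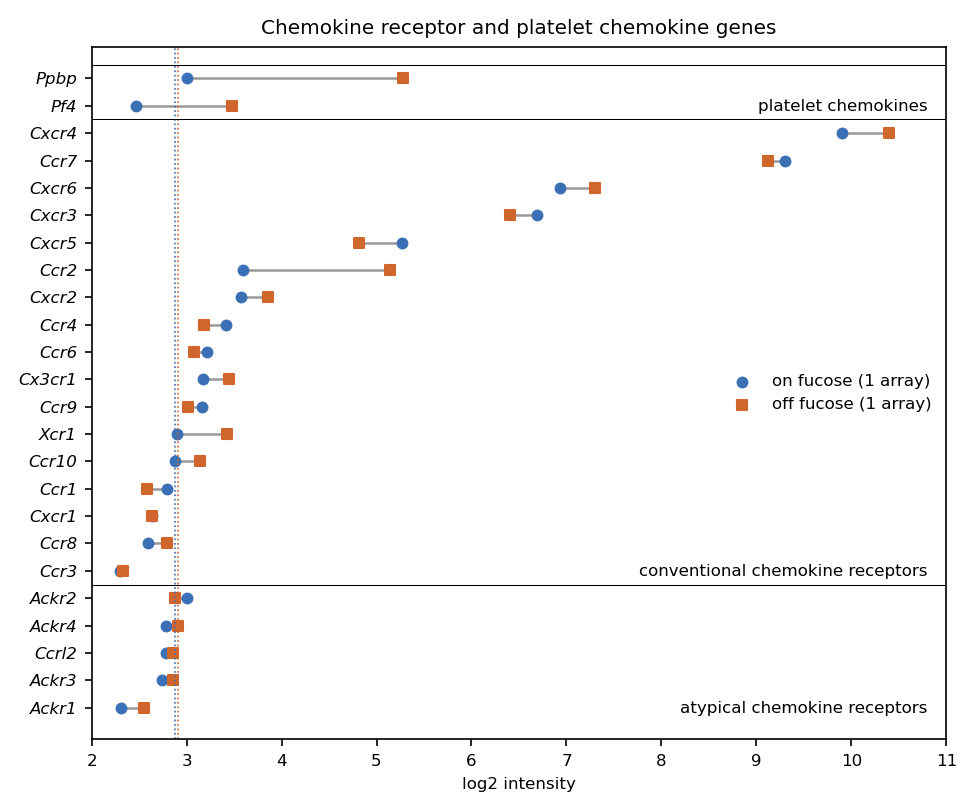
Log2 intensity of 22 chemokine receptor genes and the platelet chemokine genes Ppbp and Pf4 on the on-fucose array (circles) and the off-fucose array (squares). Dotted lines mark each array's median over all genes, 2.88 and 2.91. Ccr2 and Ppbp show the widest gaps.

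The list of 11 measured genes that act downstream of chemokine receptors includes the G protein gene Gnai2 and the Rac activator gene Dock2. Its differences were positive for 3 genes and negative for 8, with a median of -0.05. In it, 1 gene was at least 2-fold higher and 0 were at least 2-fold lower, beside 2.37% and 0.514% of all genes past the filter. That gene was Rgs2, a regulator of G protein signalling, with 6.85 on fucose and 8.18 off fucose, and its relative Rgs1 had 3.49 and 4.46. Among 10 measured genes that induce or regulate chemokine transcription, 2 were at least 2-fold higher and 0 lower, against the same shares of all genes. These were Tnfaip3, an NF-kappaB feedback inhibitor induced by the pathway, with 6.69 and 8.03, and the cytokine gene Il1b, with 2.82 and 4.11. Il1b lay under the array median on fucose and passed the filter through its off-fucose value. The cytokine gene Tnf went the other way, from 5.15 to 4.23, and the NF-kappaB subunit gene Relb had 5.91 and 5.30. The median of these 10 genes was 0.05.

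Markers of several cell types differed between the arrays beside the chemokine genes. The 2-fold counts in the marker lists below stand beside 2.37% higher and 0.514% lower among all genes past the filter. Ccl3, Ccl4, Ccl6 and Ccl9 were higher on the same array as the myeloid markers. Erythroid markers and most immediate early genes were also higher on that array, and the cell source of these ligands was not tested. The summed linear intensity of 11 granulocyte precursor markers was 119.0 on fucose and 2992 off fucose, with 9 of 11 at least 2-fold higher and Elane at 4.11 and 9.48. Of these 9, Ms4a3, Camp, S100a8 and S100a9 lay under the array median on fucose and passed the filter through their off-fucose values. The sum of 7 basophil and mast cell markers was 113.3 and 1124, with 5 of 7 at least 2-fold higher, of which Fcer1a passed in that way. Of 7 monocyte and macrophage markers, 6 passed the filter and 4 were at least 2-fold higher, of which Csf1r and F13a1 passed through the off-fucose array. The sums were 1456 and 2258, most of which is Ly6c2, a gene T cells also express. The macrophage marker Adgre1 was under the filter at 2.56 and 2.79, as were Spic, Vcam1, Cd163 and Slc40a1 among 6 red pulp macrophage markers, whose sums were 42.8 and 48.2.

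Immediate early genes, which respond to activation and to cell handling, also had higher values off fucose, with 9 of 10 positive and sums of 2413 and 4013. Atf3 and Nr4a1 were the 2 at least 2-fold higher. Erythroid markers had sums of 79.9 and 514.3, with 7 of 7 at least 2-fold higher, and 5 megakaryocyte markers, Ppbp and Pf4 among them, had 62.6 and 120.0. The part of these cell types and of cell handling in the chemokine differences was not tested.

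Ccl5 and Xcl1 stand beside the lymphocyte markers. All 9 measured T cell markers had negative differences, none of them 2-fold, although centring on this list sets its own median to 0. Their sums were 10151 on fucose and 8236 off fucose. The 7 NK cell markers had sums of 399.9 and 275.8, and the perforin gene Prf1, at 8.09 and 7.44, accounts for most of each. The transcription factor gene Eomes had 5.66 and 5.17. The list went both ways, since the NK receptor genes Ncr1 (3.03 and 3.60) and Klrk1 (2.69 and 3.50) were higher off fucose, near the array medians. The NK receptor gene Klrb1c was under the filter at 2.99 and 2.49. Of the 6 NK cell markers past the filter, 2 differences were positive and 4 negative, and none was 2-fold. The part of these cells in the value of Ccl5 was not tested.

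Cxcl16 and Ccl22 stand beside the dendritic cell markers, which went both ways. Of 11 measured cDC1 markers, 5 were at least 2-fold higher off fucose and 0 at least 2-fold lower, with 8 positive and 3 negative differences. Naaa had 5.97 and 8.36, whereas the differences of Ly75, Itgae and Cd8a were -0.93, -0.38 and -0.16. The sums of the list were 684.5 and 1171, of which Cd8a, a gene that CD8 T cells also express, gave 331.8 and 297.5. Of 7 mature dendritic cell markers past the filter, 1 was at least 2-fold lower, namely the fascin gene Fscn1, with 4.66 on fucose and 3.15 off fucose. The 8 mature markers measured had sums of 773.9 and 668.2, and Ccr7, which T cells also express, accounts for most of each. Their part in the values of Cxcl16 and Ccl22 was not tested. B cell markers had sums of 57.2 and 49.5, and stromal and endothelial markers, beside which the dim Cxcl12 and Cxcl13 stand, had 412.8 and 353.5, mostly Pecam1.

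**Figure D5:**
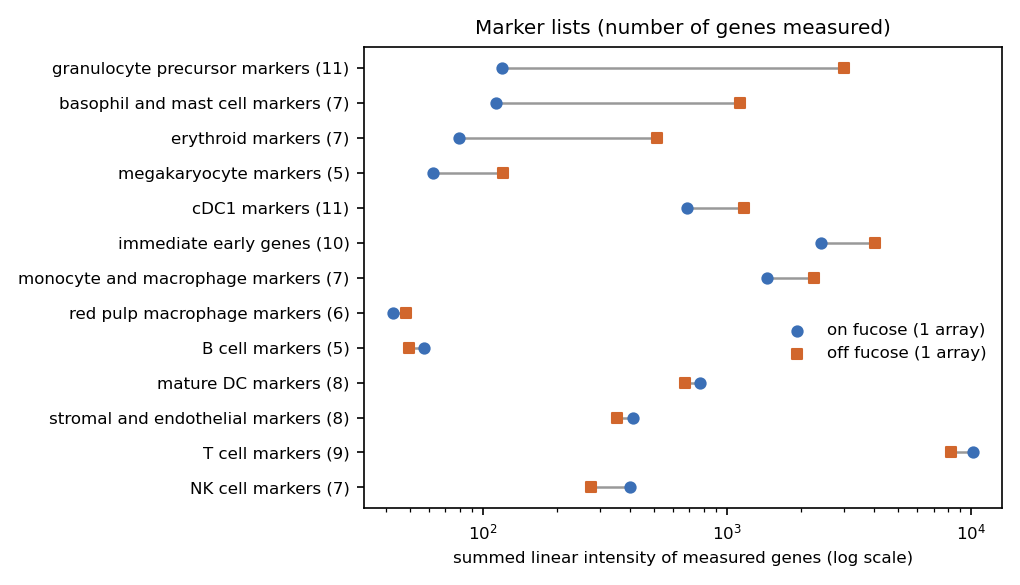
Summed linear intensity (log axis) of each marker list on the on-fucose array (circles) and the off-fucose array (squares), with the number of genes measured in brackets, ordered by the ratio of the sums. Granulocyte precursor and basophil and mast cell markers show the widest gaps towards higher values off fucose, and the sums of NK and T cell markers are lower off fucose.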

How the data were processed

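Per the submitters' processing notes, the authors summarised and normalised the arrays with RMA; version, settings and build: not given in the sources used here. The deposited table held 1 linear intensity for each of 41345 probe sets and 2 arrays. Since the range was 2.74 to 9512, values were taken as turned back from RMA's log2 scale, and log2 was computed from each. RMA makes the arrays' distributions near equal, so a shift of all genes in 1 direction would not be visible. Gene names came from the platform annotation, where 23521 probe sets had 1 symbol, 1814 had several and 16010 were not listed; all 34 member symbols matched the RefSeq table by Entrez ID. The filter was the median of gene means and the threshold 2-fold. Every member is named, with its value where it passed the filter. The members, lists, filter and alternatives were chosen with earlier results of these data known. The number of arrays limits the precision. The computations (Python 3.11.15, pandas 2.3.3, statsmodels 0.14.6 for loess) were checked on simulated data.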

Additional observations from a re-analysis of the deposited data

How the results depend on the processing

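No paired analysis was possible because there is a single array for either treatment, which also means that none could be omitted. Ccl3, Ccl4, Ccl6 and Ccl9 were the members at least 2-fold higher under the mean of probe sets, no filter, the 67th percentile filter, quantile normalization, loess, both centrings, the floor at the array median and 1.5-fold. At 3-fold, 2 of them (Ccl3 and Ccl9) passed, and with a mean level of at least 5, which leaves 3 members, 1 (Ccl3) did. The count of lower members, 1, was 0 under quantile normalization, loess, both centrings, 3-fold and the level of 5. The count of higher receptors, 1, was 0 at 3-fold and at the level of 5. The median of the members was 1.05 with the 67th percentile filter, which leaves 7 members, and 0.43 with T cell centring, which adds 1 value to every difference. That centring changed the sign of 3 members (Ccl27a, Xcl1 and Cxcl9), and centring on all genes that of Ccl27a. Low signal over background limits the dim members.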

Other observations

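Some chemokine genes are present on the arrays only through probe sets that name several genes, and these fell outside the rule. They were the CCR7 ligands Ccl19 and Ccl21, which guide T cells and dendritic cells into the white pulp, and most probe sets of the Ccl27 group. The 33 such probe sets held 23 distinct pairs of values, since near-identical gene copies share probes. The 13 probe sets with Ccl19 had levels from 2.63 to 3.33 on fucose and from 2.53 to 3.13 off fucose, and differences from -0.61 to 0.07. The 9 with Ccl21 had differences from -0.22 to 0.25, and the 11 with Ccl27 genes had differences from -0.24 to 0.20, with levels up to 4.88 and 4.92. None (0 of 23) differed by 2-fold. The genes behind these values cannot be told apart.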
